A study of Rattus norvegicus with 24 samples.

Results

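The nuclear-encoded subunits of the mitochondrial respiratory chain were followed in the lumbar dorsal root ganglia (DRG) of ovariectomized (OVX) rats. Members were taken from the gene expression table by name, as every entry whose name starts with Nduf, Uqcr or Atp5, with Sdh and a letter from a to d, or with Cox and a digit from 4 to 8. The rule found 90 entries of 17811, which gave 88 members among the 17236 names of the table, since Atp5f1 and Ndufa1 each have 2 entries. Of these, 84 had enough counts to be tested. By known assignment, 33 tested members were subunits of complex I, 4 of complex II, 8 of complex III, 13 of complex IV and 15 of complex V, which together made 73 subunits. Another 7 were assembly factors whose names meet the rule (Ndufaf1, Ndufaf3 to Ndufaf7 and Sdhaf2). The last 4 meet the rule by name and were counted here neither as subunits nor as assembly factors (Atp5s, Atp5sl, Cox7a2l and Ndufa10l1). Transcripts of the mitochondrial genome, and Cox6b1, Cox7a1 and Cox7b2, were not analysed here.

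The study used female Sprague-Dawley rats to ask what teriparatide (TPTD), the active fragment of human parathyroid hormone, does to pain after OVX. RNA was taken from the DRG of lumbar levels 4 and 5 in 24 rats at 20 weeks of age, 1 library per rat, with 8 rats in each of 3 groups. Sham-vehicle rats had a sham operation and OVX-vehicle rats had both ovaries removed at 12 weeks of age, and both received saline. OVX-TPTD rats had the same removal and received TPTD at 30 µg/kg under the skin 3 times a week for 4 weeks. The design has no sham-operated group given TPTD, so that TPTD was seen only in OVX rats. The values used were a count of reads for each gene and the FPKM, a level per kilobase of transcript and per mapped read. The library of a rat held from 15573454 to 19069898 counts. The markers of sensory neurons summed to between 16177 and 19678 FPKM, and 10 of 12 skeletal muscle markers and 5 of 6 fat markers averaged below 1 FPKM. The library titled OVX-vehicle replicate 1 carries a surgery label that reads sham. By its title it stayed with the OVX-vehicle rats. Results that rest on it are also given without it or with it counted as Sham-vehicle.

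The respiratory chain passes electrons from NADH and succinate to oxygen and uses the energy to pump protons across the inner mitochondrial membrane. Complex I oxidizes NADH, complex II oxidizes succinate, complex III hands the electrons to cytochrome c, and complex IV reduces oxygen. Complex V, the ATP synthase, lets the protons flow back and makes ATP. Large sensory neurons with long axons depend on this supply, and most subunits are encoded in the nucleus and imported into the mitochondrion.

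Every complex was abundantly expressed in DRG. The level of complex V was led by its catalytic core, with Atp5b (beta subunit) at 827 FPKM and Atp5a1 (alpha subunit) at 480 FPKM, as means of the 24 rats. Atp5b ranged from 779.9 to 910.3 FPKM in Sham-vehicle rats (median 819.7), from 797.7 to 877.7 in OVX-vehicle rats (median 824) and from 791.7 to 844.6 in OVX-TPTD rats (median 823.8). The medians of the most abundant subunit thus lay closer together than the rats of any 1 group. In complex IV the highest were Cox6a1 at 558 and Cox4i1 at 450 FPKM, both subunits that surround the catalytic core. The median over the tested subunits was 288 FPKM in complex IV and 237 FPKM in complex V. It was lower in complexes I, II and III, at 111, 119 and 124 FPKM. Complex I ran from 31.1 FPKM for Ndufab1, the acyl carrier protein of the mitochondrion, to 266 FPKM for the accessory subunit Ndufb8. Ndufab1 had a transcript width of 2569 nt, the longest of the tested subunits, and FPKM is a level per kilobase. The counts of Ndufab1 ran from 1209 to 2001 per rat, against 254 to 440 for Ndufa1, which had 39.1 FPKM. Ndufs1, at 2476 nt, averaged 130 FPKM, and the part of width in the low place of Ndufab1 was not tested. The flavoprotein Sdha (141 FPKM) and the iron-sulfur subunit Sdhb (134) led complex II, above the membrane anchors Sdhd (105) and Sdhc (93.7). In complex III, Uqcrh, the hinge protein, was highest at 195 FPKM (550 nt) and Uqcrq lowest at 21.2 (1494 nt). Assembly factors were expressed at lower levels, from 7.86 FPKM for Ndufaf6 to 59.0 for Sdhaf2.

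**Figure D1:**
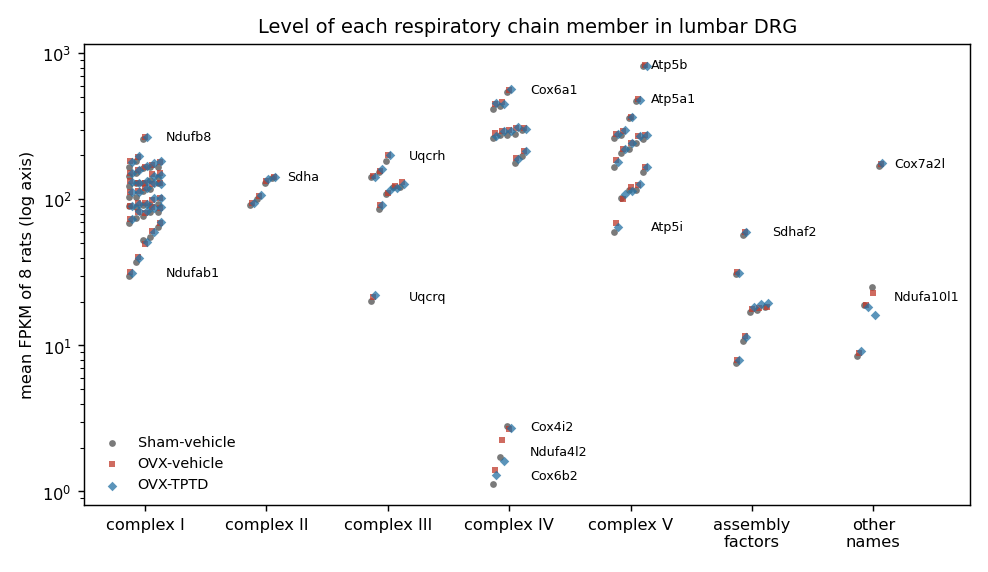
Mean FPKM (log axis) of each of the 84 tested members by group (8 rats each), placed by complex. Most members lie at nearly the same level in the 3 groups, from 827 FPKM for Atp5b down to 1.27 FPKM for Cox6b2.

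Ubiquitous and tissue-restricted isoforms were compared for Cox4i1 with Cox4i2, Ndufa4 with Ndufa4l2, Cox6a1 with Cox6a2 and Cox8a with Cox8b. In each of these pairs the ubiquitous isoform made up nearly all of the sum. Cox4i2, an isoform known from lung and from pericytes, averaged 2.72 FPKM and made up 0.547% of the sum with Cox4i1 in the median rat. Ndufa4l2, a hypoxia-induced relative of the complex IV subunit Ndufa4, averaged 1.86 FPKM and made up 0.622% of their sum. Cox6b2, known from testis, averaged 1.27 FPKM, and its share was not computed because Cox6b1 was not analysed here. Cox6a2 and Cox8b, the heart and skeletal muscle isoforms, were at 0 counts in 13 and 14 of the 24 rats and averaged 0.583 counts per rat each. Cox8c and the pseudogene Cox6c-ps1 were at 0 in every rat. These 4 members were too low to be tested.

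The promoters of many members share known motifs. Promoter sequences, from 250 bases before to 50 after the start of the gene, came from RefSeq on the rat build GRCr8. They matched 75 of the 88 members, 60 by symbol and 15 by an older symbol. Both strands were searched for the letters of 4 motifs known for genes of oxidative metabolism. These were NRF1 (GCGCANGCG, with N for any base), GABPA (CCGGAAG), YY1 (ATGGCGGC) and the estrogen-related receptors, ERR (AAGGTCA). NRF1 letters were found in 26.7% of member promoters, against 12.3% of the 9931 promoters of tested entries and 5.80% of all 33469 promoters. GABPA letters were in 28.0%, against 16.5% and 8.75%. YY1 letters were in 14.7%, against 5.53% and 2.53%, and ERR letters in 14.7%, against 2.90% and 4.61%. No member had matches of different motifs that overlapped. NRF1 letters were in 9 of 30 complex I and 6 of 14 complex V promoters and in 0 of 13 of complex IV. A match is a description of the letters and not of binding. Sdhb and Uqcrq had letters of as many motifs as the promoters shown for complexes II and III, with fewer matches, and Ndufs6 tied in complex I but is not shown because its chromosome differs from that of its entry. Letters of any of the 4 motifs were in 58.7% of member promoters, against 31.9% of those of tested entries. None of the 4 was found in 31 of the 75 member promoters, among them 11 of 30 in complex I and 9 of 13 in complex IV. For each complex the promoter with the most of the 4 motifs is printed, with ties broken by the number of matches, so these are not typical members. Sequences run 5′ to 3′ on the strand of the gene, with the motif letters in capitals. Ndufa6 (chr7:115750268-115750567, minus strand) has the letters of GABPA, NRF1 and YY1, in this order. Sdhd (chr8:59850592-59850891, minus strand) has GABPA on both sides of its start and then ERR. Uqcrc1 (chr8:118467973-118468272, plus strand) has NRF1 at 63 and at 39 bases before its start, and then YY1. Cox8a (chr1:213833574-213833873, minus strand) has GABPA at 57 and at 19 bases before its start, and then ERR. Atp5l, which RefSeq names Atp5mg (chr8:54130358-54130657, minus strand), has NRF1, GABPA and, 19 bases before its start, ERR.
Ndufa6: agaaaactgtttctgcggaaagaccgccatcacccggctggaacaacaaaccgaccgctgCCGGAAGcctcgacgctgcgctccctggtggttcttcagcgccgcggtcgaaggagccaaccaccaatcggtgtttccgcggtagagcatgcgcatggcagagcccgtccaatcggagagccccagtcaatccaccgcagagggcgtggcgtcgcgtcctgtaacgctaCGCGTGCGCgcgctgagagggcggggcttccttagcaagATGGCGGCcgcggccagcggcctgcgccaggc
Sdhd: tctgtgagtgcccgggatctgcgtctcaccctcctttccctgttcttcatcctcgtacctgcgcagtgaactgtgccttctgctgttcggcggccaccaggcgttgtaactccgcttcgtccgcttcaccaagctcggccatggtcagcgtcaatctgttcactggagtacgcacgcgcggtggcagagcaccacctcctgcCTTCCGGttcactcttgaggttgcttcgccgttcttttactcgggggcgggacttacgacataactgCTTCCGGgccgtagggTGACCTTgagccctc
Uqcrc1: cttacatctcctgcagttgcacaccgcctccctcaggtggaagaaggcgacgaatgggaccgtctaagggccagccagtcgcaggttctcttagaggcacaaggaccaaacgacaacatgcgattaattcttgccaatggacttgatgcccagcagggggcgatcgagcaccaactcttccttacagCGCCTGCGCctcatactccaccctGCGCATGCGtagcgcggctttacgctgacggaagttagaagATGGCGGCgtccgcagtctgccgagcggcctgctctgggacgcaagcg
Cox8a: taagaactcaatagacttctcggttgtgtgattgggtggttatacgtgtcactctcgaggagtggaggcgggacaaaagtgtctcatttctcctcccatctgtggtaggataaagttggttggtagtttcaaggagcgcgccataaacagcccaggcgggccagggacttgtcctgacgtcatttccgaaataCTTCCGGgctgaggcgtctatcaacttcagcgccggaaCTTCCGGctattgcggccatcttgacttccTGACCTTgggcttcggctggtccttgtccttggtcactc
Atp5l: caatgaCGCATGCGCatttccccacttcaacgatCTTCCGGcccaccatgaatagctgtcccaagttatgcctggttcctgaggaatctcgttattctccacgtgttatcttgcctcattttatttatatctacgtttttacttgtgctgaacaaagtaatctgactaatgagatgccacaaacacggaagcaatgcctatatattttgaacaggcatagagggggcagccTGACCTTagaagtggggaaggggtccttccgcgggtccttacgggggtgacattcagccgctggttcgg

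The first comparison asked what OVX does to the respiratory chain, by setting OVX-vehicle against Sham-vehicle rats. No member was called. With the quasi-likelihood test of edgeR and p-values adjusted after Benjamini and Hochberg over 12645 entries, 0 of 84 members had an adjusted p under 0.05 (0.00791% of all entries, which is 1 entry), and the smallest adjusted p of a member was 0.864. DESeq2 likewise called 0. An unadjusted edgeR p under 0.05 was seen for 4 members, which is 4.76% of them, against 4.82% of all entries. Most estimates nevertheless lay on one side. The log2 difference was above 0 for 74 of 84 members, against 50.9% of all entries. The median log2 difference of the members was 0.074, which is 5.27% on the linear scale, beside 0.0019 for all entries. By complex the median log2 difference was 0.099 in complex IV, 0.081 in complexes I and V, 0.057 in complex III and 0.026 in complex II. All 8 members of complex III and all 4 of complex II were above 0. In complex I, 28 of 33 were above 0, in complex IV 12 of 13 and in complex V 14 of 15.

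The spread between rats was as large as these differences. The mean of the 73 subunits in each rat, as log2 CPM (counts scaled to the library size) relative to all rats, ran from -0.16 to 0.094 in Sham-vehicle rats (median -0.052), from -0.17 to 0.23 in OVX-vehicle rats (median 0.018) and from -0.088 to 0.16 in OVX-TPTD rats (median 0.035). Of the OVX-vehicle rats, 6 of 8 lay above the Sham-vehicle median, and the groups overlapped over most of their range. The OVX-vehicle group held both the highest rat of the 24, replicate 1, and the lowest, replicate 6. The pooled SD within groups was 0.10. The summed FPKM of complex I ran from 3411 to 4108 in Sham-vehicle rats (median 3688), from 3368 to 4453 in OVX-vehicle rats (median 3913) and from 3553 to 4330 in OVX-TPTD rats (median 3959). Of the OVX-vehicle rats, 2 of 8 were above the highest Sham-vehicle rat. The summed FPKM of complex IV gave the same picture, with medians of 3111, 3403 and 3362 in Sham-vehicle, OVX-vehicle and OVX-TPTD rats and with 3 of 8 OVX-vehicle rats above the highest Sham-vehicle rat. The median rested in part on the library whose labels disagree. Without OVX-vehicle replicate 1, the median log2 difference of the members was 0.040, and with that library counted as Sham-vehicle it was 0.00069, with 42 of 84 members above 0. Without it the medians of complexes I to V were 0.044, 0.0031, 0.027, 0.050 and 0.041. With it counted as Sham-vehicle they were 0.0020, -0.018, -0.0067, -0.00054 and 0.0058, so that those of complexes II, III and IV changed sign. In bulk tissue, fewer cells of a type and less RNA per cell cannot be told apart.

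**Figure D2:**
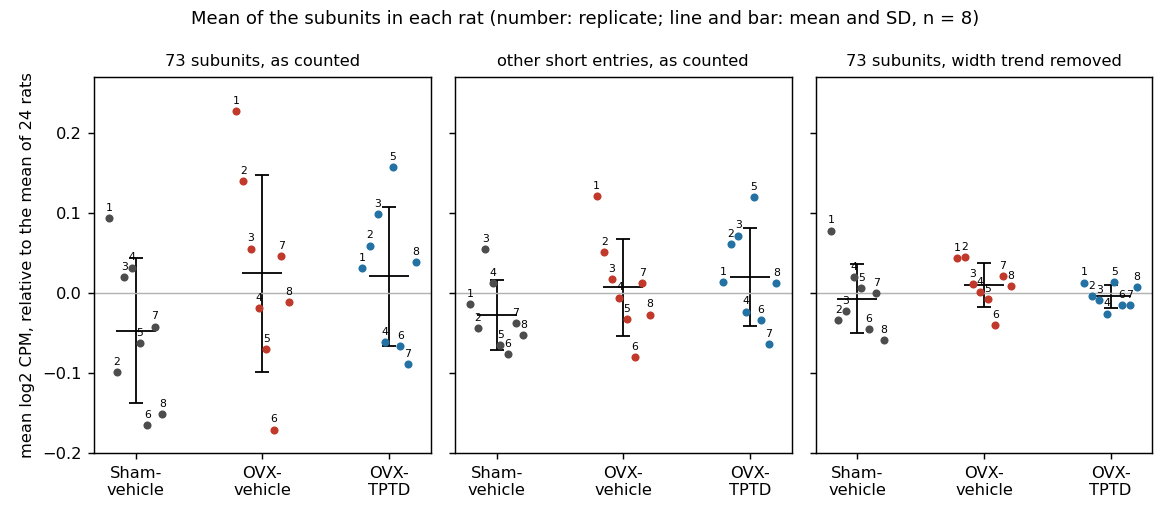
Mean log2 CPM per rat, relative to the mean of all 24 rats, for the 73 subunits as counted (left), the 2467 other entries in the shortest of 5 width bins (middle) and the 73 subunits with the transcript width trend removed (right). Points are rats numbered by replicate, and lines and bars give the mean and SD of 8 rats. OVX-vehicle replicate 1 is the highest rat at left (0.23), and the groups overlap in each panel.

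Respiratory chain transcripts are short, and the differences followed transcript width, the length of the spliced transcript. The 73 subunits had a median width of 653 nt, and 63 of the 84 tested members fell in the shortest of 5 equal bins of all entries (111 to 1336 nt). Between OVX-vehicle and Sham-vehicle rats, the median log2 difference of all entries fell over the bins from shortest to longest, from 0.046 through 0.015, 0.0021 and -0.018 to -0.034. Members of the shortest bin had a median of 0.086, with 60 of 63 above 0, against 71.3% of all entries in that bin. The 14 members of the next bin had a median of 0.018. The mean of the 2467 other short entries moved in the same rats, from -0.079 to 0.12 in OVX-vehicle rats, with replicate 1 highest and replicate 6 lowest there too. When a smooth trend in transcript width was removed from each rat, the median log2 difference of the members was 0.015, beside -0.00075 for all entries, and 54 of 84 members were above 0, against 49.7% of all entries. The 1 member with an unadjusted edgeR p under 0.05 was then Ndufa4l2, against 4.45% of all entries. The medians by complex were then 0.021 in complex I, 0.0046 in II, 0.016 in III, 0.014 in IV and 0.014 in V. The pooled SD between rats of the mean over the subunits was 0.031 after this step. Removal of the trend also removes any change that short transcripts share, and the 2 cannot be told apart here.

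**Figure D3:**
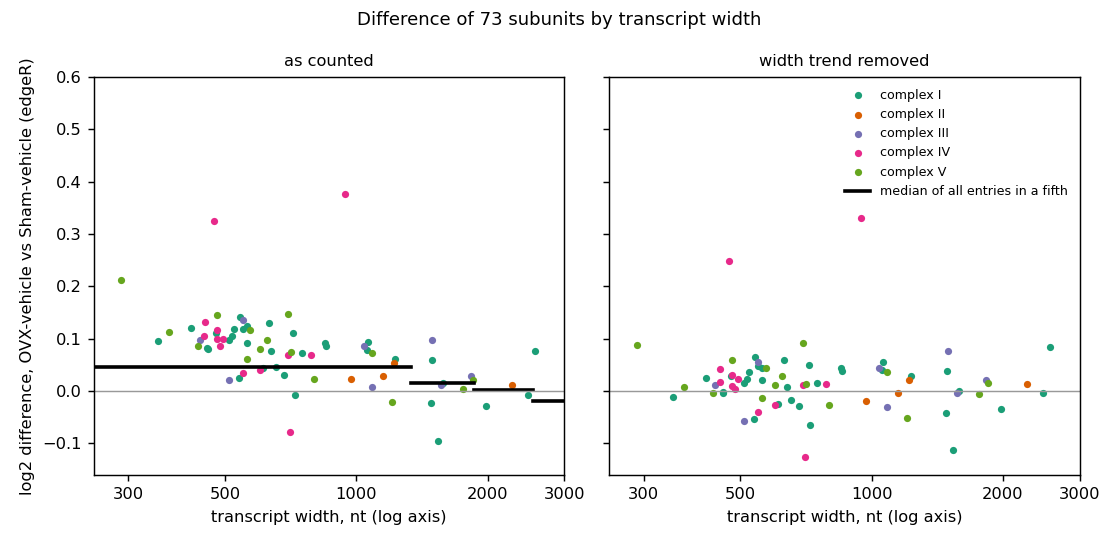
Log2 difference between OVX-vehicle and Sham-vehicle rats (edgeR) against transcript width (nt, log axis) for the 73 subunits, coloured by complex, as counted (left) and with the width trend removed (right). Black lines at left are the medians of all tested entries in each bin of width. Members of the shortest bin have a median of 0.086 at left, above the median of 0.046 of all entries there.

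The members that came nearest to a call were Ndufa4l2, Ndufb6, Atp5i and Ndufa5. Ndufb6, an accessory subunit of the membrane arm of complex I, ran from 85.4 to 104.0 FPKM in Sham-vehicle rats (median 92.0), from 82.5 to 121.8 in OVX-vehicle rats (median 103.2) and from 94.8 to 112.3 in OVX-TPTD rats (median 102.8). Of the OVX-vehicle rats, 7 of 8 were above the Sham-vehicle median, while the lowest rat of all was an OVX-vehicle rat. Its edgeR log2 difference was 0.13 (SE 0.057), with an adjusted p of 0.864 and an exact permutation p of 0.065, and 0.060 with the width trend removed. Ndufa5, another accessory subunit of complex I, had medians of 168, 184 and 182 FPKM in the 3 groups, with a range from 149 to 186 in Sham-vehicle and from 152 to 216 in OVX-vehicle rats. Its log2 difference was 0.14 (SE 0.064, edgeR adjusted p = 0.864, exact permutation p = 0.061), and the groups overlapped. Atp5i, subunit e of the membrane part of the ATP synthase and at 289 nt the shortest subunit tested, had medians of 59.4, 70.8 and 65.0 FPKM. It ran from 51.8 to 68.0 FPKM in Sham-vehicle rats and from 49.6 to 88.6 in OVX-vehicle rats, so that the OVX-vehicle range covered the other. Its log2 difference was 0.21 (SE 0.094, edgeR adjusted p = 0.864, exact permutation p = 0.094), and 0.088 with the width trend removed. Without OVX-vehicle replicate 1 the log2 differences of Ndufb6, Ndufa5 and Atp5i were 0.088, 0.10 and 0.15, the lowest of each with 1 rat left out. In complex II, whose members serve both the respiratory chain and the citric acid cycle, the smallest edgeR p belonged to Sdhd (log2 difference 0.053, SE 0.053, adjusted p = 0.870 in edgeR). In complex III it belonged to Uqcrh (0.14, SE 0.084), which had medians of 183, 199 and 197 FPKM, with the whole Sham-vehicle range inside that of the OVX-vehicle rats. Its difference was 0.085 without OVX-vehicle replicate 1 and 0.056 with the width trend removed.

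The 10 members below 0 included core subunits of complex I. Ndufv1, which binds NADH and flavin, had a log2 difference of -0.022 (SE 0.035), Ndufs1 of -0.0079 (SE 0.039) and Ndufs7 of -0.0082 (SE 0.048), all small against their errors. Ndufv1 ran from 122.0 to 140.3 FPKM in Sham-vehicle rats, from 123.5 to 134.0 in OVX-vehicle rats and from 118.1 to 136.9 in OVX-TPTD rats. The lowest difference of a complex I subunit was that of Ndufv3 (-0.095, SE 0.062), which sits beside Ndufv1 and Ndufv2. The other members below 0 were Ndufa10, Ndufaf7, Atp5f1, Atp5sl, Cox4i2 and Ndufa10l1.

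Subunits rose and fell together from rat to rat. The correlation of each subunit with the mean of the others over the 24 rats had a median of 0.89, and 49 of 73 were above 0.8. It was highest for Uqcrb (0.96), a small subunit of complex III that binds ubiquinone, and for the ATP synthase subunits Atp5h (0.96) and Atp5j2 (0.96). It was lowest for Ndufv3 (-0.48, 1535 nt) and Ndufv1 (-0.35, 1481 nt) and near 0 for Uqcrc1 (0.0053, 1567 nt), a core protein of complex III, and for Atp5b (0.10, 1759 nt). The low members Cox4i2 (-0.079) and Ndufa4l2 (0.18) stood apart as well. With the width trend removed, the median correlation was 0.41 and none was above 0.8, with Uqcrb again highest (0.77). The 24 points share libraries and the scaling of each library, so these values are a description.

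The second comparison asked what TPTD does in OVX rats, by setting OVX-TPTD against OVX-vehicle rats. It shares the OVX-vehicle libraries with the first. No member was called by edgeR (0 of 84, and 0% of all 12645 entries), and the smallest adjusted p was 0.995. Estimates were centred on 0, with 41 of 84 members higher, against 49.0% of all entries, and a median log2 difference of -0.0018, beside -0.0020 for all entries. An unadjusted edgeR p under 0.05 was seen for 2 members, or 2.38%, against 3.65% of all entries. The medians by complex were 0.0012, 0.018, 0.00096, -0.017 and -0.0014 in complexes I to V. In complex IV, 9 of 13 subunits were below 0 and in complex I 15 of 33. With the width trend removed, the median log2 difference of the members was -0.0078, and 32 of 84 were above 0, against 51.3% of all entries. The 4 members with an unadjusted edgeR p under 0.05, or 4.76%, were then Atp5f1 and Sdhb, above 0, and Atp5g1 and Ndufa4l2, below 0, against 4.05% of all entries. Of the OVX-TPTD rats, 5 of 8 lay above the OVX-vehicle median of the mean over the subunits, and 2 of 8 with the trend removed. The OVX-vehicle library with the conflicting label again mattered. Without it the median of the members was 0.033, and with that library counted as Sham-vehicle it was 0.037.

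Of the named members in this comparison, Atp5f1, subunit b of the stalk that holds the ATP synthase together, was higher in the OVX-TPTD group. It ran from 93.7 to 111.0 FPKM in OVX-vehicle rats (median 99.0) and from 99.4 to 114.5 in OVX-TPTD rats (median 110.6), beside 85.0 to 113.0 in Sham-vehicle rats (median 104.5). All 8 OVX-TPTD rats lay above the OVX-vehicle median, although the groups overlapped. Its log2 difference was 0.11 (SE 0.051, edgeR adjusted p = 0.995, exact permutation p = 0.023). The 2 entries of Atp5f1 lie close together on chromosome 2 and may share reads, so that this value, taken from the entry with more counts, is uncertain. In complex II, Sdhb had a log2 difference of 0.065 (SE 0.042), with medians of 127, 133 and 139 FPKM in Sham-vehicle, OVX-vehicle and OVX-TPTD rats and 7 of 8 OVX-TPTD rats above the OVX-vehicle median. In complex III, Uqcrfs1, the Rieske iron-sulfur protein, had a log2 difference of 0.080 (SE 0.052) and also 7 of 8 rats above that median. Neither passed the test. In complex I the smallest p belonged to Ndufs1 (0.040, SE 0.039) and in complex V, after Atp5f1, to the ring subunit Atp5g1 (-0.081, SE 0.064).

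**Figure D4:**
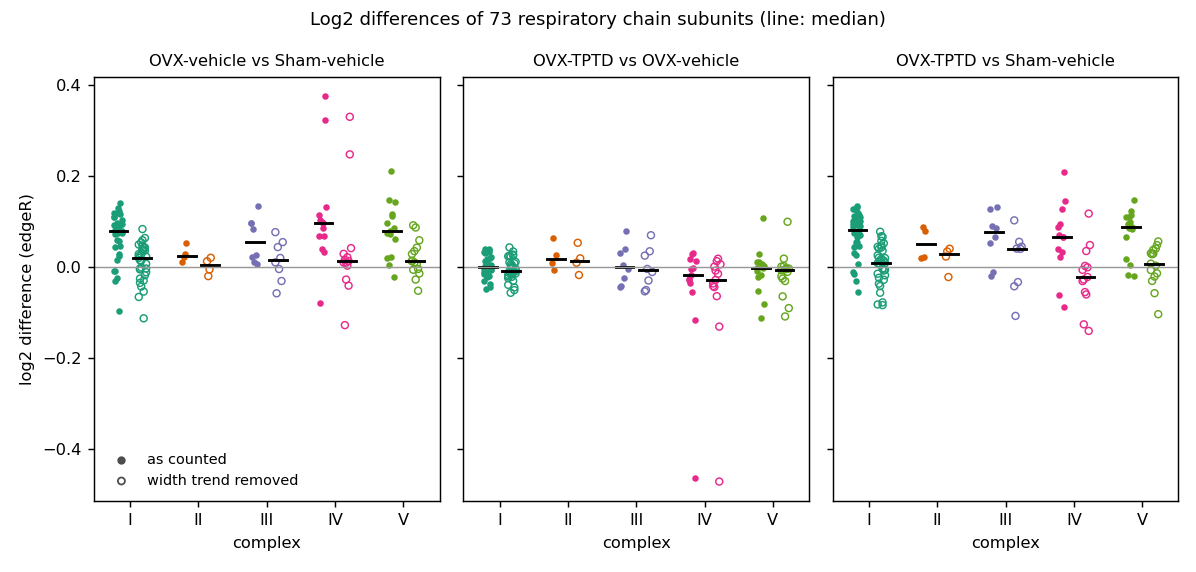
Log2 differences (edgeR) of the 73 subunits in the 3 comparisons, by complex. Filled points are as counted, open points have the width trend removed, and black lines are medians. Between OVX-vehicle and Sham-vehicle rats the medians lie between 0.026 and 0.099 as counted and between 0.0046 and 0.021 with the trend removed.

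The member with the smallest p in the first and the second comparison was Ndufa4l2. Ndufa4l2 is encoded on chromosome 7 (70821957 to 70824085 in rn6), and averaged 34.2 counts per rat, so that each value carries a wide counting error. It ran from 1.33 to 2.08 FPKM in Sham-vehicle rats (median 1.75), from 1.75 to 2.92 in OVX-vehicle rats (median 2.18) and from 0.89 to 1.93 in OVX-TPTD rats (median 1.68). All 8 OVX-vehicle rats were above the Sham-vehicle median and all 8 OVX-TPTD rats were below the OVX-vehicle median, but both pairs of groups overlapped. The edgeR log2 difference was 0.38 (SE 0.15) between OVX-vehicle and Sham-vehicle rats, with an adjusted p of 0.864 and an exact permutation p of 0.016. It was -0.46 (SE 0.15, edgeR adjusted p = 0.995, exact permutation p = 0.0076) between OVX-TPTD and OVX-vehicle rats. At the thresholds of the study, taken here with an exact two-sided permutation test of log2 FPKM (p under 0.05 and a log2 difference beyond 0.25), Ndufa4l2 was the 1 member past them in the first comparison, against 1.52% of the 13024 entries tested. Without the fold threshold it was still the 1 member, against 5.12% of all entries. When OVX-vehicle replicate 6 was left out there were 23 such members, against 7.86% of all entries. Ndufa4l2 was also the 1 member past both thresholds in the second comparison, against 1.50%. Atp5f1 joined it there without the fold threshold, against 3.81%. With the width trend removed the log2 differences were 0.33 and -0.47. With OVX-vehicle replicate 1, its highest rat, counted as Sham-vehicle, the first was 0.19 and not past the thresholds, and on the scale log2(FPKM + 1) it was not past them either. Ndufa4l2 and Cox4i2 are known as genes of pericytes in mouse brain. The 7 markers of pericytes and smooth muscle summed to between 82.0 and 127 FPKM in Sham-vehicle, between 87.6 and 121 in OVX-vehicle and between 77.1 and 115 in OVX-TPTD rats. Their median log2 difference was 0.027 between OVX-vehicle and Sham-vehicle rats, with 4 of 7 above 0. It was -0.098 between OVX-TPTD and OVX-vehicle rats, with 0 of 7 above 0, and no marker passed the test. Their part in the values of Ndufa4l2 was not tested. Cox4i2 had log2 differences of -0.079 (SE 0.17) and 0.018 (SE 0.17) in the same 2 comparisons, with ranges of 1.98 to 4.43, 1.90 to 3.56 and 1.89 to 3.80 FPKM that overlapped fully. Cox6b2 had medians of 1.05, 1.50 and 1.26 FPKM, with 6 of 8 OVX-vehicle rats above the Sham-vehicle median and a log2 difference of 0.32 (SE 0.25) that did not pass the test.

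**Figure D5:**
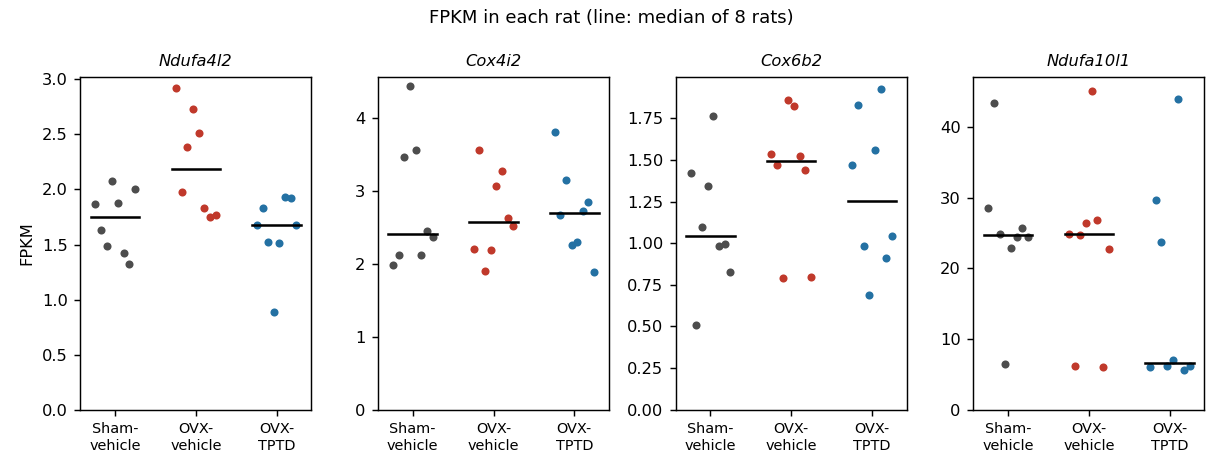
FPKM of Ndufa4l2, Cox4i2, Cox6b2 and Ndufa10l1 in each rat by group, with the median of 8 rats as a line. Ndufa4l2 is highest in OVX-vehicle rats (median 2.18) with overlap, and Ndufa10l1 lies in 3 separate ranges.

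Ndufa10l1, which shares the name of the complex I subunit Ndufa10, varied most of all tested members between rats. Its coefficient of variation over the 24 rats was 59.1%, against 3.08% for Ndufa10. The values lay in 3 separate ranges, from 5.58 to 7.06 FPKM in 8 rats, from 22.8 to 29.7 in 13 rats and from 43.4 to 45.1 in 3 rats. The low range held 1 Sham-vehicle, 2 OVX-vehicle and 5 OVX-TPTD rats, and the high range held 1 rat of each group. Its entry on chromosome 6 (62796951 to 62798384 in rn6) spans 1434 bases, the same as its transcript width, so that the gene model has no intron. The log2 differences were -0.15 (SE 0.43), -0.51 (SE 0.44) and -0.67 (SE 0.44) for OVX-vehicle against Sham-vehicle, OVX-TPTD against OVX-vehicle and OVX-TPTD against Sham-vehicle, and none passed the test. With 1 rat left out, the second ran from -0.93 (without OVX-TPTD replicate 6) to -0.30 (without OVX-vehicle replicate 5) and the third from -1.08 (without OVX-TPTD replicate 6) to -0.50. Ndufs6 shows a related limit. The entry of this zinc-binding subunit spans 415 bases of chromosome 2, while RefSeq places the gene on chromosome 1 of GRCr8, so that its value is uncertain.

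The third comparison, of OVX-TPTD with Sham-vehicle rats, asked whether treated OVX rats differ from rats that kept their ovaries. No member was called (0 of 84, against 0.0316% of all entries, which is 4), and the smallest adjusted p of a member in edgeR was 0.294. The log2 difference was above 0 for 72 of 84 members, against 50.7% of all entries, with a median of 0.074, beside 0.0019 for all entries. An unadjusted edgeR p under 0.05 was seen for 5 members, or 5.95%, against 15.1% of all entries. These were the complex I subunits Ndufb6 and Ndufc2, the assembly factor Ndufaf1, Sdhb and Cox8a. Ndufc2, an accessory subunit of complex I, ran from 106.9 to 132.9 FPKM in Sham-vehicle and from 118.1 to 149.0 in OVX-TPTD rats, with 7 of 8 OVX-TPTD rats above the Sham-vehicle median. Its log2 difference was 0.13 (SE 0.054, edgeR adjusted p = 0.294, exact permutation p = 0.019). Ndufb6 and Sdhb had all 8 OVX-TPTD rats above the Sham-vehicle median, with log2 differences of 0.14 (SE 0.057) and 0.088 (SE 0.042). Cox8a, a small subunit of complex IV, had a difference of 0.13 (SE 0.062) and 5 of 8 such rats. At the thresholds of the study 0 members were past, against 2.74% of all entries. Without the fold threshold, 7 were past in the exact permutation test, against 13.9% of all entries. With OVX-vehicle replicate 1 counted as Sham-vehicle, 1 member was past without the fold threshold, against 6.96% of all entries. Transcript width again went with the differences. The median of all entries ran from 0.061 in the shortest bin to -0.057 in the longest, and 58 of the 63 members of the shortest bin were above 0. With the trend removed the median of the members was 0.0097, with 50 of 84 above 0, against 50.6% of all entries. After this step the medians were 0.0098, 0.029, 0.041, -0.021 and 0.0083 in complexes I to V. The 3 members with an unadjusted edgeR p under 0.05, or 3.57%, were then Ndufb7, Uqcr11 and Atp5g1, with log2 differences of -0.083, -0.11 and -0.10, against 13.8% of all entries. With the neuron markers as a covariate, the median of the members as counted was 0.036.

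Genes that work beside the respiratory chain were described from fixed lists. Of 69 proteins of the mitochondrial ribosome, which makes the subunits encoded in the mitochondrion, 57 were above 0 between OVX-vehicle and Sham-vehicle rats, 0 were called, and the median log2 difference was 0.054. With the width trend removed it was 0.019, and the median width of this list was 998 nt. Enzymes of the citric acid cycle, with a median width of 2212 nt, had 9 of 15 above 0 and a median of 0.017. Electron carriers and coenzyme Q enzymes had 11 of 15 above 0 and a median of 0.051, other assembly factors 16 of 23 and 0.018, and carriers and uncouplers of the inner membrane 6 of 9 and 0.024. None of these lists held a called gene in any comparison. The regulators of mitochondrial biogenesis, with a median width of 2298.5 nt, had 7 of 18 above 0 and a median of -0.026 between OVX-vehicle and Sham-vehicle rats. Between OVX-TPTD and Sham-vehicle rats they had 5 of 18 above 0 and a median of -0.083, or -0.069 with the width trend removed. An unadjusted edgeR p under 0.05 was seen there for 5 of the 18, against 15.1% of all entries, and 4 of these 5 are named here. Ppargc1b, a coactivator of mitochondrial genes, had a log2 difference of -0.24 (SE 0.11), Tfb2m, a transcription factor of the mitochondrial genome, of 0.12 (SE 0.047), Gabpa of 0.092 (SE 0.040) and the mitochondrial RNA polymerase Polrmt of -0.13 (SE 0.062). Their adjusted p in edgeR was 0.326, 0.269, 0.299 and 0.320, so that none passed. The neuron markers had medians of -0.0016, -0.016 and -0.014 in the 3 comparisons in the order above, and their summed levels overlapped between the groups. Schwann cell markers moved with the groups, with 6 of 6 above 0 between OVX-vehicle and Sham-vehicle rats (median log2 difference 0.15) and 0 of 6 between OVX-TPTD and OVX-vehicle rats (median -0.13), and none was called. They summed to between 3130 and 4068 FPKM in Sham-vehicle, between 3209 and 4832 in OVX-vehicle and between 3114 and 4052 in OVX-TPTD rats. The 7 skeletal muscle markers that could be tested had 0 above 0 between OVX-TPTD and OVX-vehicle rats, with a median of -0.29. They had 5 of 7 above 0 between OVX-vehicle and Sham-vehicle rats (median 0.094) and 0 of 7 between OVX-TPTD and Sham-vehicle rats (median -0.066). Satellite glia markers had 2 of 5, 5 of 5 and 2 of 5 above 0 in the 3 comparisons, with medians of -0.039, 0.035 and -0.0052. Endothelial markers had 2 of 3, 0 of 3 and 2 of 3, with medians of 0.12, -0.033 and 0.067. Red blood cell markers had 5 of 5 above 0 between OVX-TPTD and OVX-vehicle rats (median 0.29) and between OVX-TPTD and Sham-vehicle rats (median 0.31). Macrophage markers had 4 of 4 above 0 in the same comparisons, with medians of 0.098 and 0.16, and none of either list was called. Between OVX-vehicle and Sham-vehicle rats, 2 of 5 red blood cell and 3 of 4 macrophage markers were above 0. Between OVX-TPTD and Sham-vehicle rats, 3 of 6 Schwann cell markers were above 0. The part of these cells in the values of the respiratory chain was not tested.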

How the data were processed

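RNA-seq of lumbar DRG was compared in 24 rats, and the members and lists were chosen with earlier results of these data known. Per the labels, the reads were paired-end, from stranded poly(A) libraries, and the submitters' processing notes name bcl2fastq 1.8.4, TopHat2 2.0.14 and the build rn6. The authors deposited expected counts per entry, of which 86.4% were whole within 0.001, and FPKM values. Their transcript width was used as an annotation.

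Expected counts were rounded and fitted in 1 model of all 24 rats by the quasi-likelihood method of edgeR 4.0.16 (TMM factors of 0.969 to 1.015, low counts filtered, Benjamini-Hochberg over 12645 entries, called at an adjusted p under 0.05). The exact two-sided permutation test used the 12870 divisions of 16 rats on log2 FPKM, where the smallest p is 0.00016. The width trend was a lowess curve (span 0.3) of log2 CPM on transcript width in each rat. Of names with 2 entries, the one with the higher mean count was used. Named members were, in each complex, the 2 with the smallest edgeR p in each comparison, the 2 highest and the 1 lowest in FPKM, tissue isoforms and catalytic subunits, given in part. Others, such as Ndufa10l1, Ndufv3 and Ndufs6 and those most or least like the other subunits, were named after their values were seen. On data simulated for OVX-vehicle against Sham-vehicle over 12645 entries, the test recovered 4% of entries changed by 0.1 on the log2 scale, 50% at 0.3 and 88% at 1. Alternatives included DESeq2 1.42.0, limma 3.58.1, other filters and scalings, leaving out each rat, and a replicate block. The labels give each rat as a separate sample.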

Additional observations from a re-analysis of the deposited data

Results flagged for a closer look

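In 144 groups of 8 rats checked for a rat far from the others, 4 were found, and chance alone gives about 1 in 20 groups. Ndufa4l2 was lowest in OVX-TPTD replicate 4, at 0.890 FPKM, with the next rat at 1.51 FPKM. Ndufc2 was highest in OVX-TPTD replicate 5, at 149 FPKM, with the next at 132 FPKM. Ndufs7 was highest in Sham-vehicle replicate 1, at 104 FPKM, with the next at 91.7 FPKM. Uqcrq was lowest in OVX-vehicle replicate 6, at 15.3 FPKM, with the next at 20.7 FPKM.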

How the results depend on the processing

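No member was called in any of the 3 comparisons under the 15 alternatives or when any 1 rat was left out. With 1 rat left out, the median log2 difference of the members ran from 0.040 to 0.10 between OVX-vehicle and Sham-vehicle rats (lowest without OVX-vehicle replicate 1), from -0.027 to 0.033 between OVX-TPTD and OVX-vehicle rats and from 0.049 to 0.095 between OVX-TPTD and Sham-vehicle rats. Members past the thresholds of the study numbered 1, 1 and 0 in this order. The first became 0 on log2(FPKM + 1) and with OVX-vehicle replicate 1 counted as Sham-vehicle. Without the fold threshold the other counts became 2 and 7. With both thresholds and 1 rat left out, the first count ran from 1 to 2 (2 without OVX-vehicle replicate 6) and the second stayed at 1. The third ran from 0 to 1 (1 without OVX-TPTD replicate 2, OVX-TPTD replicate 6 or Sham-vehicle replicate 4). Without the fold threshold, the first ran from 1 to 23 (23 without OVX-vehicle replicate 6, against 7.86% of all entries). The second then ran from 2 to 3, and the third from 2 to 22 (22 without OVX-TPTD replicate 7, against 20.3% of all entries). With OVX-vehicle replicate 1 counted as Sham-vehicle, the counts without the fold threshold were 0, 3 and 1. The shares of all entries were then 3.12%, 6.25% and 6.96%. The medians of complexes II, III and IV between OVX-vehicle and Sham-vehicle rats fell to -0.018, -0.0067 and -0.00054 with OVX-vehicle replicate 1 counted as Sham-vehicle. Those of complexes I, III, IV and V between OVX-TPTD and OVX-vehicle rats took both signs over the alternatives, within -0.040 to 0.051, and that of complex IV between OVX-TPTD and Sham-vehicle rats fell to -0.021 with the width trend removed. Differences of single members that changed sign follow, and the cause was not tested. Between OVX-vehicle and Sham-vehicle rats, Sdhb (0.023) became -0.019 with the width trend removed, with or without the replicate block, -0.027 with OVX-vehicle replicate 1 counted as Sham-vehicle and ran from -0.0033 (without that library) to 0.038 (without OVX-vehicle replicate 6) with 1 rat left out. Sdhd (0.053) became -0.015 with that library counted as Sham-vehicle, and Ndufa10l1 (-0.15) ran from -0.37 without OVX-vehicle replicate 5 to 0.011 without Sham-vehicle replicate 2. Sdhd between OVX-TPTD and OVX-vehicle rats (0.028) became -0.0011 with neuron markers as a covariate. Ndufa4l2 between OVX-TPTD and Sham-vehicle rats (-0.087) ran from -0.13 without Sham-vehicle replicate 7 to 0.0011 without OVX-TPTD replicate 4. With the replicate block the medians were 0.072, 0.0041 and 0.075, and an unadjusted edgeR p under 0.05 was seen for 8, 1 and 12 of 84 members, against 5.21%, 4.09% and 15.7% of all entries. Same-numbered rats deviated together only weakly, with correlations of -0.092 to 0.11. Between OVX-TPTD and OVX-vehicle rats all 8 correlations were above 0 (0.0091 to 0.097). What same-numbered rats share besides the number was not tested. The precision limits calls on differences of about 0.1, and low members such as Ndufa4l2 and Cox6b2 rest on few counts.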
